A study of Mus musculus with 6 samples.

Results

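The nuclear genes of respiratory complexes II, III, IV and V were followed in the testis of mice that had received fecal microbiota. The members were the protein-coding genes with symbols for succinate dehydrogenase (Sdha to Sdhd), the cytochrome bc1 complex (symbols starting with Uqcr, and Cyc1), part of cytochrome c oxidase (Cox5, Cox6 and Cox7 subunits of the series a, b and c, without Cox6b1, Cox6b2, Cox7b and Cox7b2) and the ATP synthase (symbols starting with Atp5). This gave 40 of the 54532 genes of the table, with 39 symbols, since Atp5o stands for 2 genes. Subunits of complexes II, III, IV and V made up 4, 9, 8 and 17 of them, and the other 2 encode associated factors, Cox7a2l of complex IV and Atp5s of complex V. A mean FPKM (fragments per kilobase of gene length, scaled to the depth of the library) of 1 or more over the 6 libraries was required for a test, and 38 of the 40 members reached it, among 15206 genes in all. The others were Cox6a2 and the second Atp5o gene (ENSMUSG00000116933).

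Testis RNA came from 3 control-FMT recipients, numbered 16, 19 and 21, and 3 alcohol-FMT recipients, numbered 18, 24 and 31, and each mouse gave 1 library. All recipients were male C57BL/6 mice that arrived at 3 weeks of age, shared cages for 2 weeks and then drank water while they were gavaged with 200 μl of donor fecal supernatant 3 times a week for 10 weeks. The donors had drunk water (control-FMT) or 10% ethanol (alcohol-FMT), for 8 weeks by the series text and 10 weeks by the methods. Each group held 5 recipients, of which 3 were sequenced, and since no antibiotic was given before the transfer the recipients still had their own microbiota.

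Mitochondria make most of the ATP of an aerobic cell by passing electrons to oxygen and using the proton gradient this builds. Complex II takes electrons from succinate, complex III passes them from ubiquinol to cytochrome c, complex IV hands them to oxygen, and complex V, the ATP synthase, lets protons flow back and makes ATP. All of complex II and most subunits of the others are encoded in the nucleus, while complexes III, IV and V also hold a few subunits encoded in the mitochondrial genome. In the testis, developing germ cells rely on respiration, and several subunits have forms used mainly by these cells, such as Cox6b2, Cox8c and the cytochrome c gene Cyct.

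The libraries held 16504096 to 18633124 fragments in genes, of which 55635 to 71022 fell on the members. Of 24 germ cell markers, 23 were tested, and 2 of these, both of round spermatids, were higher after alcohol-FMT at a p of at most 0.05 before adjustment and 0 were lower. The 6 markers of elongating spermatids summed to 15851 to 18356 FPKM in the control-FMT group and 16075 to 23607 FPKM in the alcohol-FMT group, while the 7 markers of the epididymis summed to at most 5.65 FPKM. The defining markers of testicular germ cells were thus present. In bulk tissue, fewer cells of a type and less RNA per cell cannot be told apart. The summed markers of spermatocytes lay at 1980.5 to 2043 FPKM in the control-FMT group and 2096 to 2348 FPKM in the alcohol-FMT group, and those of round spermatids at 733 to 788 and 790 to 852 FPKM. The 4 adipocyte markers, of which 2 were tested and 1 was higher, summed to 11.8 to 14.6 and 14.8 to 18.6 FPKM. These 3 of the 12 marker lists had group ranges that did not overlap, in the same direction as most members below. Of single genes tested, 7.76% lay wholly higher in this way and 5.33% wholly lower. The spermatocyte sums were 2096 and 2109 FPKM in mice 18 and 24, and only mouse 31 reached 2348 FPKM. The ranges of the other lists overlapped, and some leaned the other way. Of the 4 red cell markers 2 were tested and 1 was lower. They summed to 14.19 to 17.55 FPKM after control-FMT and 7.82 to 14.20 FPKM after alcohol-FMT. The Leydig markers summed to 358 to 466 and 290 to 406 FPKM. The part of these lists in the values of the members was not tested.

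Nearly all members had a higher mean in the alcohol-FMT group, by small amounts, and no single member passed a test adjusted over all genes. The log2 fold change was taken on the log2(FPKM + 1) scale as alcohol-FMT minus control-FMT, and is given with ± its standard error where this is shown. It was above 0 for 37 of the 38 tested members, beside 7984 of the 15206 genes tested. The median was 0.16 over the members and 0.01 over all genes tested. In limma, 9 members were higher with an unadjusted p of at most 0.05 and 0 were lower. Over all 15206 genes tested 4.93% were higher and 2.34% were lower at this threshold. The 9 were Sdhc of complex II, Uqcrc1 and Uqcrq of complex III, Cox7a2, Cox5b and the associated Cox7a2l of complex IV, and Atp5g1, Atp5h and Atp5j2 of complex V. Their log2 fold changes ran from 0.16 to 0.34, and their adjusted p in limma from 0.59 to 0.69. The other 29 had log2 fold changes from -0.04 to 0.39. After adjustment limma called 0% of genes, 0 of 15206, with 1106 at a p of at most 0.05 before adjustment, and limma-voom on the fragments also called 0, with 1112 unadjusted.

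**Figure D1:**
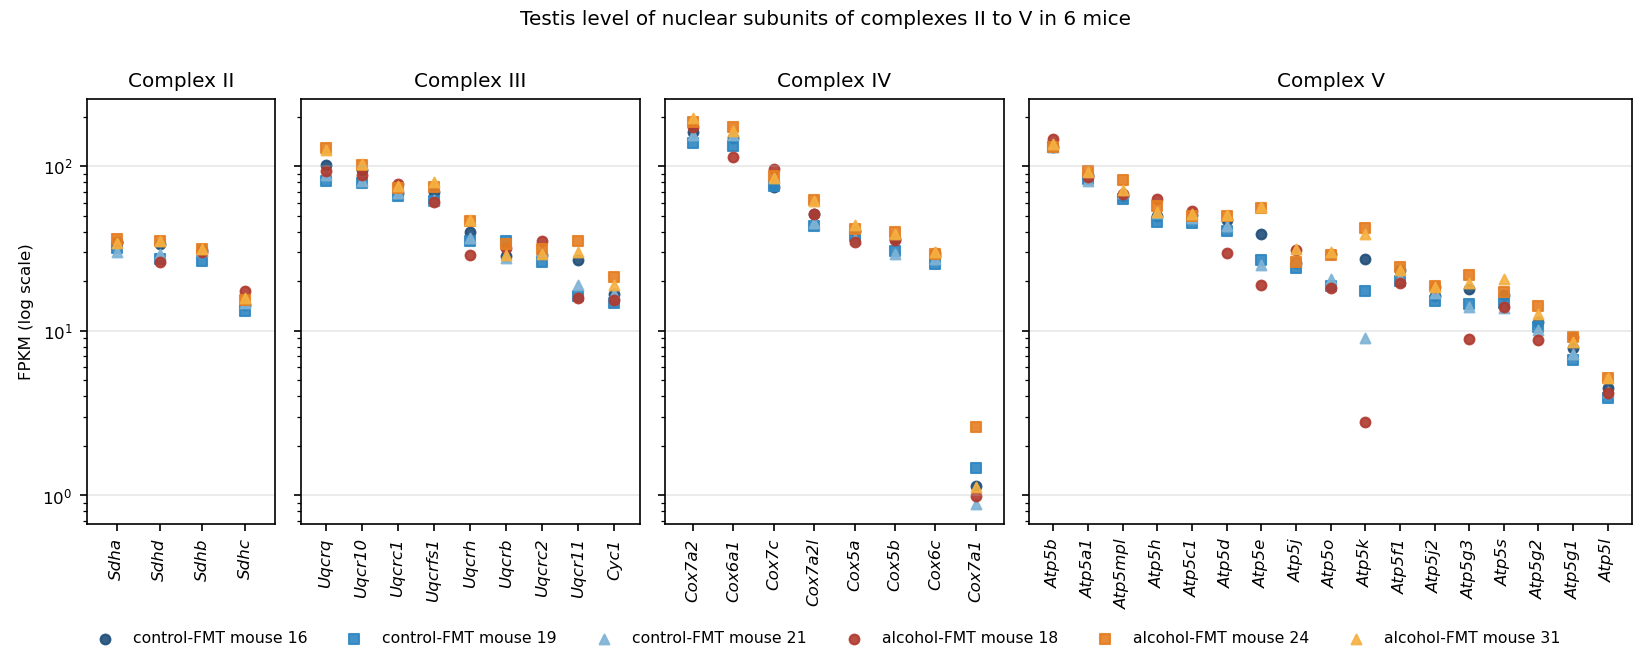
FPKM (log scale) of the 38 tested members in each of the 6 mice, by complex and in order of mean level, with the associated factors Cox7a2l and Atp5s shown beside complexes IV and V. Most genes keep the 6 mice close together, while Atp5k spreads from 2.79 to 42.0 FPKM.

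The count of 9 rested on which libraries entered. Control-FMT mouse 19 had the lowest level of 18 of the 38 members, beside 2490 of the 15206 genes tested. Without this mouse only Atp5g1 was left, which is 2.63% of the members beside 2.7% of all genes in the same fit. Without alcohol-FMT mouse 18 the count was 21, beside 12.2% of all genes. It was 6 and 4 without control-FMT mice 16 and 21, beside 4.31% and 2.99% of all genes, and 5 and 3 without alcohol-FMT mice 24 and 31, beside 3.16% and 3.91%. Scaled to library totals, 3 members were left, namely Cox7a2, Cox7a2l and Atp5g1, and 0 were lower. With this scaling the balance over all genes turned, to 2.95% higher and 3.39% lower. For 8 of the 38 members all alcohol-FMT mice exceeded all control-FMT mice, and for 0 the reverse held. Over all genes tested these shares were 7.76% and 5.33%.

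The 4 genes of complex II had a median log2 fold change of 0.10, the lowest median of the complexes. Sdha, the flavoprotein that oxidizes succinate, was the highest of the complex, at 34.8, 32.0 and 30.2 FPKM in control-FMT mice 16, 19 and 21 and 34.8, 35.9 and 34.2 FPKM in alcohol-FMT mice 18, 24 and 31. These ranges overlapped. Sdhc, an anchor of the complex in the inner membrane (chr1:171127165-171150603, minus strand, GRCm38), was at 14.3, 13.2 and 14.7 FPKM in the control-FMT mice and 17.4, 15.5 and 15.8 FPKM in the alcohol-FMT mice. Mouse 18 had the highest value and the groups did not overlap, with a log2 fold change of 0.19 ± 0.08 (limma adjusted p = 0.69). Sdhb, the iron-sulfur subunit, and Sdhd, the other membrane anchor, had values of 0.08 and 0.09 on the same scale, and Sdhd was lowest in mouse 18 at 26.3 FPKM.

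Complex III had 9 genes, all with log2 fold changes above 0 and with a median of 0.16. Uqcrc1 and Uqcrc2 encode the core proteins on the matrix side. Uqcrc1 (chr9:108936633-108949623, plus strand) was at 69.0, 65.6 and 68.6 FPKM in control-FMT mice 16, 19 and 21 and 77.7, 73.8 and 76.3 FPKM in alcohol-FMT mice 18, 24 and 31, so that the groups did not overlap (log2 fold change 0.16 ± 0.06, limma adjusted p = 0.68). Uqcrc2 was highest in mouse 18, at 35.1 FPKM, with a log2 fold change of 0.16. This gene overlaps Pdzd9 on the opposite strand, at a mean of 59.1 FPKM, and the sources do not say whether fragments were counted by strand, so reads of the pair cannot be told apart.

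Among the redox subunits of complex III, Cyc1 (cytochrome c1) was the lowest gene of the complex, at 16.8, 14.8 and 16.8 FPKM in the control-FMT mice and 15.3, 21.2 and 19.0 FPKM in mice 18, 24 and 31. Uqcrfs1, the Rieske iron-sulfur protein, averaged 64.9 ± 4.44 FPKM (SD, n = 3) after control-FMT and 72.1 ± 10.1 FPKM (SD, n = 3) after alcohol-FMT. Both had mouse 18 apart from the other alcohol-FMT mice, within or below the control-FMT range.

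The small subunits of complex III differed more from mouse to mouse. Uqcrq (chr11:53427922-53430831, minus strand), the highest gene of the complex, was at 102, 81.2 and 89.1 FPKM in control-FMT mice 16, 19 and 21 and 93.1, 128 and 126 FPKM in alcohol-FMT mice 18, 24 and 31. Its log2 fold change was 0.34 ± 0.14 (limma adjusted p = 0.69), and the groups overlapped through mouse 18. Uqcr11 was at 27.1, 16.2 and 19.1 FPKM in the control-FMT mice and 15.8, 35.3 and 30.2 FPKM in the alcohol-FMT mice, which put the alcohol-FMT mice at both ends of the range. The hinge protein gene Uqcrh had the same form, with its lowest value, 29.0 FPKM, in mouse 18 and its highest, 46.8 and 47.1 FPKM, in mice 24 and 31. Uqcr10 and Uqcrb had log2 fold changes of 0.20 and 0.06.

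Complex IV had 7 tested subunit genes, with a median log2 fold change of 0.19 and all of them above 0. Cox7a2, the widely used form of subunit 7a (chr9:79755361-79759878, minus strand), was the highest of all 40 members by mean level, at 163, 138 and 154 FPKM in control-FMT mice 16, 19 and 21 and 172, 186 and 195 FPKM in alcohol-FMT mice 18, 24 and 31. The groups did not overlap, with a log2 fold change of 0.28 ± 0.09 (limma adjusted p = 0.60). Cox7a1, the form of heart and skeletal muscle, was near the limit of 1 FPKM, at 8 to 14 fragments in the control-FMT mice and 9, 26 and 11 fragments in mice 18, 24 and 31. In mouse 24 this was 2.61 FPKM, with an exact Poisson interval of 1.70 to 3.82 FPKM at 95%. Such intervals cover counting error only.

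Cox7a2l, a relative of subunit 7a counted here as an associated factor (chr17:83501919-83514333, minus strand), was at 51.0, 43.6 and 45.3 FPKM in the control-FMT mice and 51.3, 62.5 and 61.3 FPKM in mice 18, 24 and 31. The groups were separated by the narrow gap between mice 16 and 18, with a log2 fold change of 0.31 ± 0.10 (limma adjusted p = 0.62). Of the remaining subunits, Cox5b (chr1:36691449-36693681, plus strand), which binds zinc on the matrix side, was at 36.4, 30.5 and 29.4 FPKM in the control-FMT mice and 35.6, 40.0 and 38.8 FPKM in the alcohol-FMT mice (log2 fold change 0.24 ± 0.10, limma adjusted p = 0.68). Only mouse 16 and mouse 18 kept its groups from being apart.

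Cox6a1 and Cox6a2 are the general and the muscle form of subunit 6a. Cox6a1 was at 149, 132 and 154 FPKM in the control-FMT mice and 115, 173 and 165 FPKM in mice 18, 24 and 31, with a log2 fold change of 0.04 that comes from values on both sides of the control-FMT range. Cox6a2 had 1 to 3 fragments in each library, at or under 0.262 FPKM, and was not tested. Cox5a, Cox6c and Cox7c had log2 fold changes of 0.07, 0.13 and 0.19. Cox6c was above the control-FMT range in all alcohol-FMT mice, but it overlaps Vps13b on the opposite strand, at a mean of 4.38 FPKM.

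Complex V had 16 tested subunit genes, 15 of them with log2 fold changes above 0, and a median of 0.14. Its catalytic head, F1, turns ADP into ATP as the central stalk rotates inside it. Atp5b, the catalytic beta subunit and the highest gene of the complex, was at 131, 131 and 132 FPKM in control-FMT mice 16, 19 and 21 and 146, 131 and 136 FPKM in alcohol-FMT mice 18, 24 and 31. The alpha subunit Atp5a1 averaged 84.8 ± 3.47 FPKM (SD, n = 3) after control-FMT and 90.8 ± 3.76 FPKM (SD, n = 3) after alcohol-FMT, and the gamma subunit Atp5c1 averaged 48.1 ± 2.81 and 51.6 ± 1.48 FPKM (SD, n = 3 each). These 3 genes held close to their means in all mice.

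The smaller parts of the central stalk did not. Atp5e, the epsilon subunit, was at 38.7, 26.8 and 25.2 FPKM in the control-FMT mice and 19.0, 55.9 and 56.3 FPKM in mice 18, 24 and 31, a 2.96-fold range between the lowest and the highest mouse, both given alcohol-FMT. The log2 fold change, 0.39 ± 0.41, was the largest of the members (limma adjusted p = 0.87). Atp5d, the delta subunit, was at 47.0, 40.5 and 43.2 FPKM in the control-FMT mice and 29.9, 49.6 and 50.8 FPKM in the alcohol-FMT mice, and with a log2 fold change of -0.04 it was the only tested member below 0. No member of the head and central stalk was among the 9.

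The ring of c subunits carries the protons through the membrane, and Atp5g1, Atp5g2 and Atp5g3 encode the same mature c protein with different import signals. Atp5g1 (chr11:96068852-96075670, minus strand) was at 7.87, 6.69 and 7.23 FPKM in control-FMT mice 16, 19 and 21 and 9.16, 9.25 and 8.62 FPKM in alcohol-FMT mice 18, 24 and 31. The groups did not overlap (log2 fold change 0.28 ± 0.08, limma adjusted p = 0.59), and Atp5g1 was the member that stayed at an unadjusted p up to 0.05 in each of the fits that left out 1 library. Atp5g3 was at 18.0, 14.5 and 13.9 FPKM in the control-FMT mice and 8.97, 21.9 and 19.5 FPKM in the alcohol-FMT mice, and Atp5g2 at 11.3, 10.5 and 10.2 and at 8.82, 14.1 and 12.7 FPKM. In mouse 18 these paralogs were the lowest of the 6 mice while Atp5g1 was above every control-FMT mouse.

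**Figure D2:**
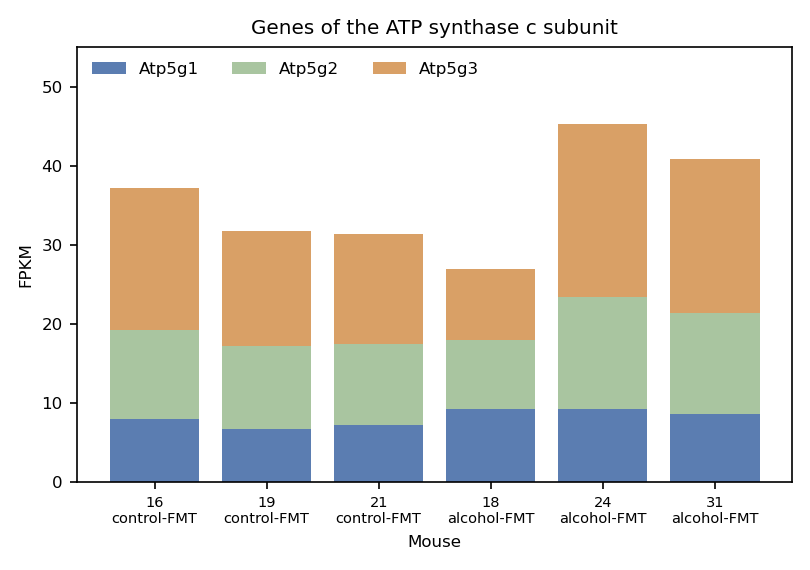
FPKM of Atp5g1, Atp5g2 and Atp5g3, stacked, in each mouse. The sum lies between 27.0 FPKM in mouse 18 and 45.2 FPKM in mouse 24, and the Atp5g1 part is similar in height in the 3 alcohol-FMT mice.

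The makeup of the c subunit transcripts stood apart in mouse 18. Atp5g3 gave 44.5 to 48.5% of the summed FPKM of the 3 genes in the control-FMT mice and 48.4 and 47.8% in mice 24 and 31, against 33.3% in mouse 18. Atp5g1 gave 21.1 to 23.1% in the control-FMT mice, 34.0% in mouse 18 and 20.4 and 21.1% in mice 24 and 31.

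The peripheral stalk keeps the head from turning with the ring. Atp5h, its d subunit (chr11:115415689-115419962, minus strand), was at 50.2, 45.8 and 51.8 FPKM in the control-FMT mice and 63.0, 57.2 and 52.5 FPKM in mice 18, 24 and 31, with groups that did not overlap (log2 fold change 0.22 ± 0.09, limma adjusted p = 0.68). Atp5j, the F6 subunit, had a log2 fold change of 0.21 and overlaps Gabpa on the opposite strand, at a mean of 4.71 FPKM. Atp5o, the subunit that joins stalk and head, was at 29.2, 18.7 and 20.8 FPKM in the control-FMT mice and 18.2, 28.9 and 30.3 FPKM in the alcohol-FMT mice. Control-FMT mouse 16 was as high as mice 24 and 31 there. The second gene named Atp5o was listed at 0 in each library. The b subunit Atp5f1 had a log2 fold change of 0.06.

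In the membrane part, Atp5j2, the f subunit (chr5:145183698-145192062, minus strand), was at 16.3, 15.2 and 17.1 FPKM in the control-FMT mice and 18.5, 18.6 and 18.5 FPKM in the alcohol-FMT mice. Among the tested members its alcohol-FMT values were the closest together, with an SD of 0.083 FPKM (n = 3), and the groups did not overlap (log2 fold change 0.19 ± 0.07, limma adjusted p = 0.67). Atp5l, the g subunit, was the lowest subunit gene of the complex among those tested, at 4.48, 3.93 and 4.27 FPKM in the control-FMT mice and 4.19, 5.18 and 5.16 FPKM in mice 18, 24 and 31. It overlaps the antisense gene Gm30934, which had a higher mean of 8.87 FPKM. Atp5mpl, a small membrane subunit, and the associated factor Atp5s had log2 fold changes of 0.16 and 0.18. Of the 40 member genes 17 overlapped another gene, 9 of them one with a mean FPKM of at least 1.

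Atp5k, the e subunit that helps ATP synthases pair into dimers (chr5:108433244-108434448, minus strand), varied most of all members. It was at 27.5, 17.4 and 9.10 FPKM in control-FMT mice 16, 19 and 21 and 2.79, 42.0 and 39.0 FPKM in alcohol-FMT mice 18, 24 and 31. Mouse 18 had 29 fragments of the gene (2.79 FPKM, exact Poisson interval 1.87 to 4.01 FPKM), and mouse 24 had 482 (38.3 to 45.9 FPKM), so the alcohol-FMT group held both ends of the range. The log2 fold change of 0.10 had a standard error of 0.92. Of 11649 protein-coding genes tested only 3 spanned a wider range on the log2(FPKM + 1) scale, the predicted or unnamed genes AC087559.2, Gm14632 and Gm21953, which are named here after their values were seen. The median span was 0.34 over all genes tested and 0.41 over the members. A pseudogene named for Atp5k had at most 2 fragments in a library, and 8 pseudogenes named for members had at most 8. Pseudogenes with other names were not searched for.

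Across the complexes the members did not place mouse 18 alike. In this mouse 13 members lay below every control-FMT mouse, 13 lay above, and 12 lay between. Those below were Sdhd, Uqcrfs1, Uqcrh, Uqcr11, Cox5a, Cox6a1, Atp5d, Atp5e, Atp5f1, Atp5g2, Atp5g3, Atp5k and Atp5o, and those above were Sdhc, Uqcrc1, Uqcrc2, Cox6c, Cox7a2, Cox7a2l, Cox7c, Atp5b, Atp5c1, Atp5g1, Atp5h, Atp5j and Atp5j2. Each complex had members of both placements. Both placements held for 34.2% of the members, near the shares over all genes tested, of which 28.7% were below every control-FMT mouse in mouse 18 and 32.9% above, so the split itself is not particular to the members. Mouse 24 was above every control-FMT mouse for 33 of the 38 members and mouse 31 for 32, beside 33.5% and 34.2% of all genes tested, and neither had a member below the control-FMT range.

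**Figure D3:**
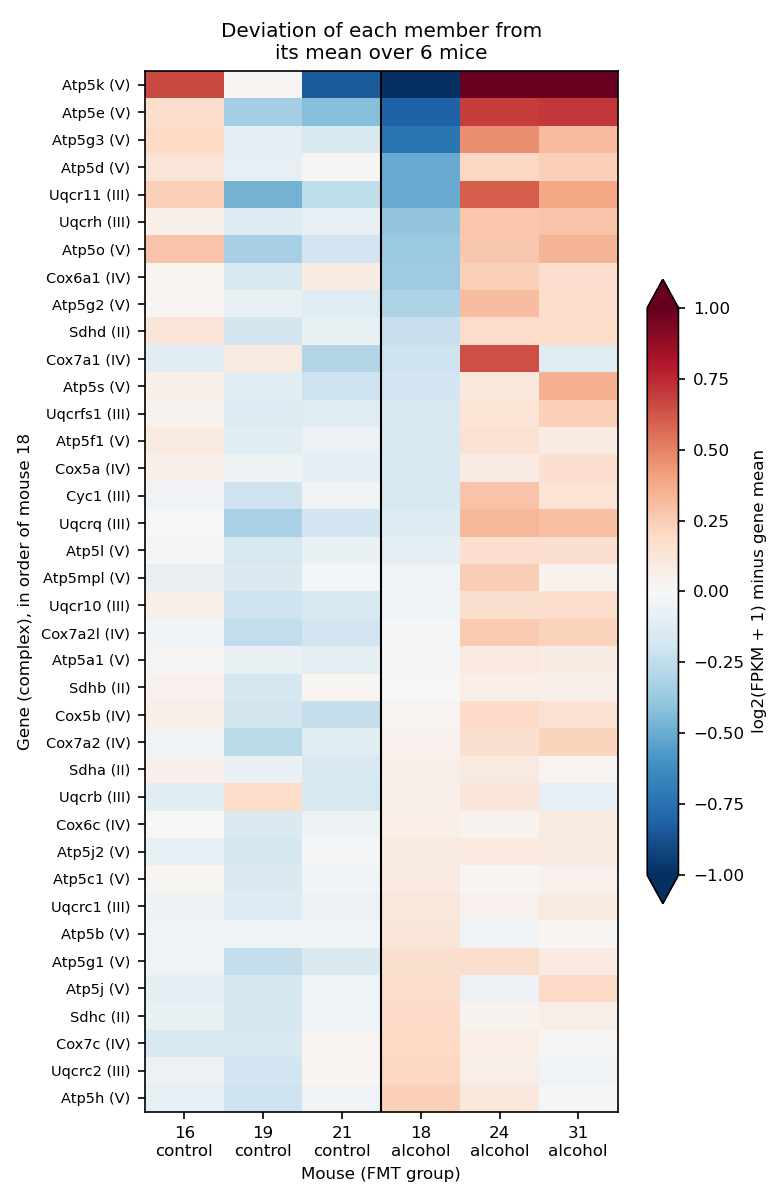
Deviation of each tested member from its mean over the 6 mice (log2(FPKM + 1), colour limits at 1 on either side), with genes in order of mouse 18 and the complex in brackets. Mice 24 and 31 are above the mean (red) for most genes, while mouse 18 runs from blue at the top (Atp5k, Atp5e, Atp5g3) to red at the bottom (Atp5h, Uqcrc2, Cox7c).

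The libraries also differed in how the level of a gene went with the GC content of its transcripts. Per 10 points of GC content, the deviation of a gene from its mean changed by -0.10 on the log2 scale in mouse 18, by -0.05 in control-FMT mice 19 and 21, by 0.04 in mouse 16 and by 0.08 in mice 24 and 31. Among the 38 members, Pearson's r between GC content and deviation was -0.33 in mouse 18, 0.40 in mouse 24 and 0.29 in mouse 31, and in the control-FMT mice it was 0.28 in mouse 16, -0.28 in mouse 19 and -0.17 in mouse 21. With log2 gene length in place of GC content, r was 0.39 in mouse 18, -0.52 in mouse 24 and -0.28 in mouse 31. In control-FMT mice 16, 19 and 21 it was -0.25, -0.03 and 0.38. Length thus went with the deviations at least as far as GC content in mice 18, 21 and 24. These are descriptions across genes, which share each library. The 13 members below the controls in mouse 18 had a median GC content of 52.0% and a median length of 1675 bases, and the 13 above had 48.8% and 3130 bases. The 12 within the control-FMT range, at 51.9% and 1935 bases, were close to those below. The GC ranges of the members below and above overlapped widely, from 43.8 to 60.8% and from 45.5 to 55.2%.

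**Figure D4:**
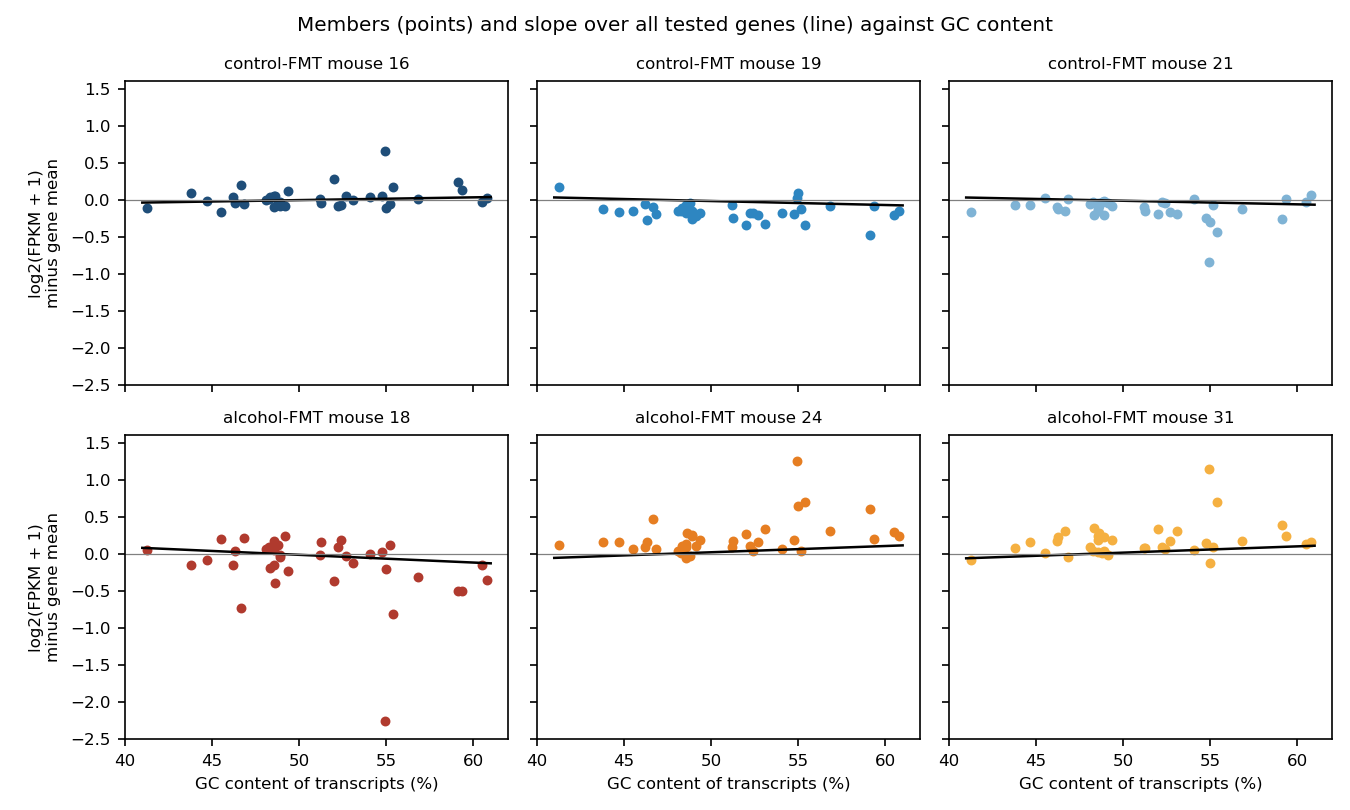
Deviation of each tested member from its mean over the 6 mice (log2 scale) against the GC content of its transcripts, one panel per mouse. The line is the fit over all genes tested, which falls in mouse 18 (-0.10 per 10 points) and climbs in mice 24 and 31 (0.08), and the point far from the rest is Atp5k.

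With length trends alone removed, 5 members were higher and 0 lower, beside 3.42% and 3.38% of all genes. With the trends of each library against GC content and gene length removed, the median log2 fold change of the members was 0.11, and 5 members were higher by the unadjusted threshold and 0 were lower. Over all genes 3.79% were higher and 3.7% were lower in that fit. The 5 were Cox7a2, Cox7a2l, Atp5g1 and Atp5j2, which were also among the 9, and Atp5j. Atp5k had a log2 fold change of -0.01 in that fit, with a standard error of 0.87 in place of 0.92.

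Without alcohol-FMT mouse 18, the alcohol-FMT group was left with 2 libraries. In that fit 21 of the 38 members were higher by the same threshold and 0 were lower, and the median log2 fold change was 0.22. Leaving out this mouse also moved the background, to 12.2% higher and 5.56% lower over all genes. By complex, the subunits higher were 0 of 4 in complex II, 7 of 9 in complex III, 3 of 7 in complex IV and 9 of 16 in complex V. Atp5k then had a log2 fold change of 1.25 ± 0.39 (limma adjusted p = 0.20), Atp5e one of 0.90 ± 0.17 (limma adjusted p = 0.14) and Uqcr11 one of 0.66 ± 0.20 (limma adjusted p = 0.20). These genes were lowest in mouse 18, so leaving it out could only raise their values. Without mouse 24 instead, Atp5k had a log2 fold change of -0.50. No member passed an adjusted p of 0.05 in the fit without mouse 18, where the smallest limma adjusted p of a member was 0.14.

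**Figure D5:**
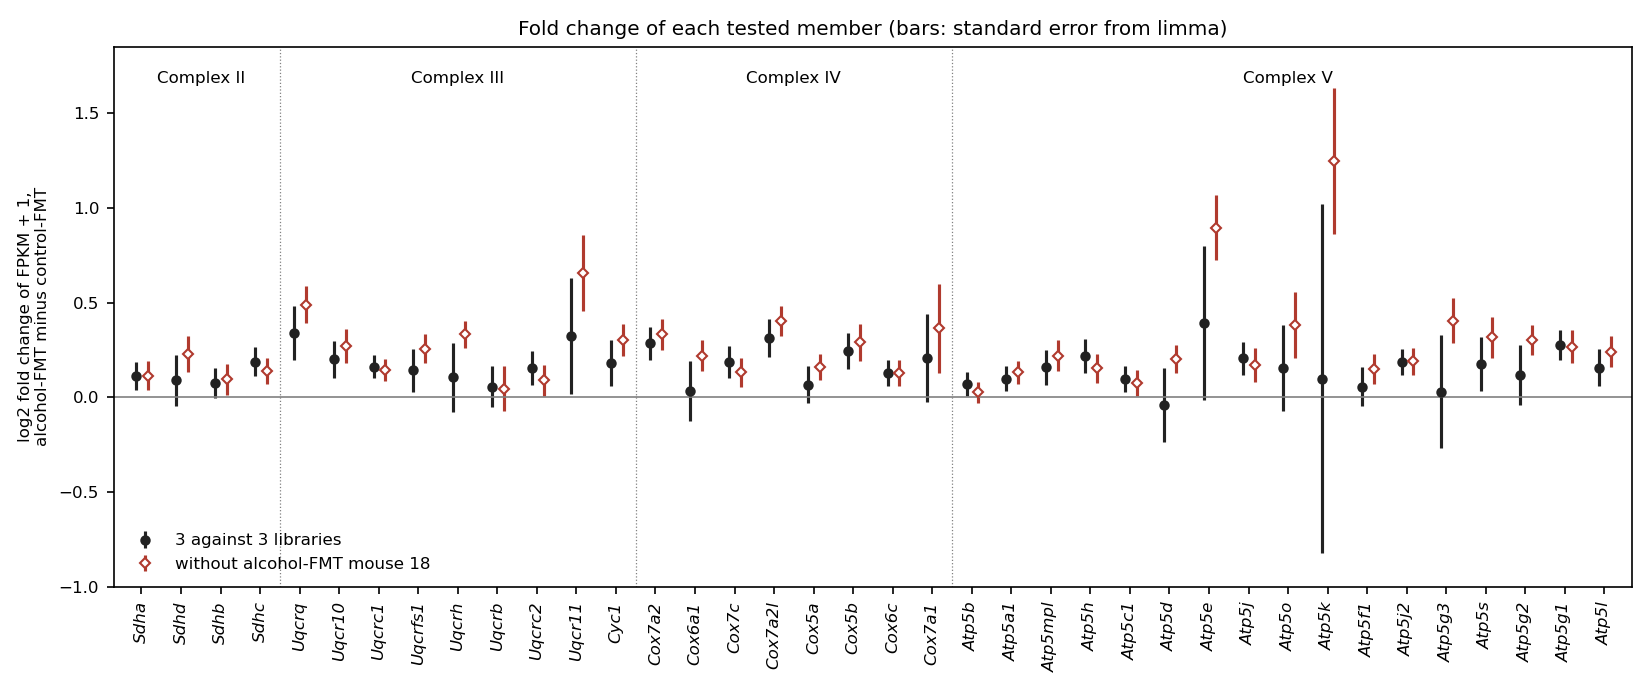
Log2 fold change of each tested member (alcohol-FMT minus control-FMT, FPKM + 1, bars of 1 standard error from limma), with all 6 libraries (filled circles) and without alcohol-FMT mouse 18 (open diamonds). Most filled circles lie slightly above 0, and the open diamonds of Atp5k, Atp5e and Uqcr11 stand at 1.25, 0.90 and 0.66.

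Respiratory gene promoters are known for binding sites of NRF1 and of the ETS factor GABP. As a description, the promoters of the members were searched for these cores and for SP1, CCAAT and TATAAA motifs. RefSeq promoters on GRCm38.p6, of 250 bases before to 50 after a start, were found for 30 of the 38 tested members, 2 of them under another symbol (Atp5pb for Atp5f1, Dmac2l for Atp5s). The NRF1 core GCGCANGCG, on either strand, was in a promoter of 12 of the 30, beside 6.25% of all 32851 promoters, and the ETS core CCGGAAG in 10 of the 30, beside 8.86%. Both were in 6 members (Sdhd, Uqcr11, Cox6a1, Atp5h, Atp5k and Atp5l), beside 1.21% of all promoters. The SP1 core GGGCGG was in 12 of the 30 (35.7% of all), CCAAT in 15 (37.4%) and TATAAA in 1 (13.6%). Of the members with a promoter, 13 were below the controls in mouse 18, 7 between and 10 above. In this order the NRF1 core was held by 7, 2 and 3, and the ETS core by 6, 2 and 2. The SP1 core was held by 6, 2 and 4, CCAAT by 4, 6 and 5, and TATAAA by 0, 1 and 0. A link between the motifs and the place of mouse 18 was not tested. The shares of members and of all promoters are not like for like. Members were counted by gene, with a match in any of their promoters. The background was counted by promoter, over 27025 genes of all kinds, and was not matched for level or GC content. A match to these letters does not show that the factor binds there.

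Sequences are given for 3 members low in mouse 18 with both cores (Atp5k at chr5:108434350-108434649, Uqcr11 at chr10:80406772-80407071, Cox6a1 at chr5:115348909-115349208), for the c subunit paralogs that parted in mouse 18 (Atp5g3 at chr2:73911277-73911576, Atp5g1 at chr11:96075582-96075881) and for Cox7a2 (chr9:79759804-79760103), the member of highest level. All are on the minus strand of GRCm38.p6 and are written 5′ to 3′ in the direction of the gene, with matches to any of the 5 motifs, on either strand, in capitals. Matches overlap each other where NRF1 cores lie on both strands and where CCAAT does so.
Atp5k: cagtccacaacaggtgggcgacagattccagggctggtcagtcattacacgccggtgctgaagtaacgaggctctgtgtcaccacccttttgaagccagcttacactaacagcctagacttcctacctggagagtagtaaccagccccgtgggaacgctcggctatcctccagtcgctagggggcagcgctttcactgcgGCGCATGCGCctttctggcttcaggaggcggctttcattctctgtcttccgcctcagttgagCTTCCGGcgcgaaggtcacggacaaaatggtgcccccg
Uqcr11: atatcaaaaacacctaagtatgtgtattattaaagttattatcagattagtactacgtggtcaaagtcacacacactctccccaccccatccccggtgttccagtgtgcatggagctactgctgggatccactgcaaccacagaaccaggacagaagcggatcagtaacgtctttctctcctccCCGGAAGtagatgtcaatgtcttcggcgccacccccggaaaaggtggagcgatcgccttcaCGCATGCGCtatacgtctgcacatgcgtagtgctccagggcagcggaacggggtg
Cox6a1: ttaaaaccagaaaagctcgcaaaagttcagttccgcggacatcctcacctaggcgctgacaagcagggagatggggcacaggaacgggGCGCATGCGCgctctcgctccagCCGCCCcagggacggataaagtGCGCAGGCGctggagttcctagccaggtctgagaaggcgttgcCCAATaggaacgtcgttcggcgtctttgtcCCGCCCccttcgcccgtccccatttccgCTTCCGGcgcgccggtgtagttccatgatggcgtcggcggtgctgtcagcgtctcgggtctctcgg
Atp5g3: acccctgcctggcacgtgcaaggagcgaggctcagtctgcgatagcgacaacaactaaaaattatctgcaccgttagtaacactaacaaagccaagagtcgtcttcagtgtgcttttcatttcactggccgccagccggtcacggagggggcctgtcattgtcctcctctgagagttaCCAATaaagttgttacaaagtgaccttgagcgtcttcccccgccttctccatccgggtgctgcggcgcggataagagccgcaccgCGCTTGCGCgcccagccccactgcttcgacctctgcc
Atp5g1: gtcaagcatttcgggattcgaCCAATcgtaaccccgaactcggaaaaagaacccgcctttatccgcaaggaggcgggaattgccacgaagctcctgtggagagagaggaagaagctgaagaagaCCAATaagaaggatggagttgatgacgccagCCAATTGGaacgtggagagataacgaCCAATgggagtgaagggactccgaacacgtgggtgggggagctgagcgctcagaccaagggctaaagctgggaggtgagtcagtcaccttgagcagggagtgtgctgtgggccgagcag
Cox7a2: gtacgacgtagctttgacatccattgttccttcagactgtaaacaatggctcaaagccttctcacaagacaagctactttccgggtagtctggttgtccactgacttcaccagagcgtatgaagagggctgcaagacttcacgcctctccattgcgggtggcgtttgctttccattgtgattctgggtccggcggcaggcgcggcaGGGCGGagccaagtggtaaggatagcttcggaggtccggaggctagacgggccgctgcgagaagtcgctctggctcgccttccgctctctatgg

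Counted from the start, with -1 the base before it and 1 the first base of the transcript, Atp5k has overlapping NRF1 cores of both strands from -50 and an ETS core from 13. Uqcr11 has an ETS core from -66 and an NRF1 core from -5, and Cox6a1 has NRF1 cores from -162 and from -117 and an ETS core from -16. The paralogs differ, in that Atp5g3 has an NRF1 core in the transcribed part and 1 CCAAT, while Atp5g1 has neither core and 5 CCAAT matches, 2 of them overlapping. Cox7a2 has 1 SP1 core and no other match. The promoters printed here were picked and do not stand for all members. Atp5h, above the controls in mouse 18, also held both cores. Uqcrfs1, Cox5a, Atp5d and Atp5f1, below the controls in mouse 18, held neither.

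The factors that build these complexes were described from lists of assembly genes and partners. Of 36 listed assembly factors of complexes II to V, 30 were tested, with a median log2 fold change of 0.08, 2 higher by the unadjusted threshold and 0 lower. This is 6.67% of the list, near the 4.93% of all genes tested. The 2 were Cmc1 and Cmc2, which act in the assembly of complex IV, with log2 fold changes of 0.21 and 0.30 (limma adjusted p = 0.68 and 0.69). Of the other nuclear subunits of complex IV, 8 of 10 were tested, all with log2 fold changes above 0 and a median of 0.08, and 1 was higher. This was Cox4i1, which stabilizes the core of complex IV, at 122, 112 and 119 FPKM in the control-FMT mice and 131, 138 and 132 FPKM in mice 18, 24 and 31, with groups that did not overlap (log2 fold change 0.18 ± 0.06, limma adjusted p = 0.67). The testis forms Cox6b2 and Cox7b2 had log2 fold changes of 0.28 and 0.06.

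The mitochondrially encoded partners, cytochrome b of complex III, mt-Co1 to mt-Co3 of complex IV and mt-Atp6 of complex V, had a median of -0.43 over 5 tested genes, 4 of them below 0, with 1 lower by the unadjusted threshold and 0 higher. The lower one was mt-Co2, at 30.4, 31.8 and 38.3 FPKM in the control-FMT mice and 30.0, 20.2 and 24.1 FPKM in mice 18, 24 and 31 (log2 fold change -0.43 ± 0.15, limma adjusted p = 0.67). The groups did not overlap, with mouse 18 close to mouse 16. Levels differed widely among these partners. Over the 6 libraries mt-Co1 and the cytochrome b gene had means of 2591 and 835 FPKM. The means of mt-Co2, mt-Co3 and mt-Atp6 were only 29.2, 16.4 and 15.4 FPKM. Why they were so much lower was not tested, so their fold changes may not stand for the level of the transcripts. The mitochondrial genome gave 0.591 to 1.05% of all fragments, with the lowest shares in mice 24 and 31.

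Of 12 regulators of respiratory genes, 10 were tested, with a median of 0.02, 1 higher and 0 lower. Tfam, which packs and transcribes mitochondrial DNA, was at 29.0, 30.8 and 27.9 FPKM in the control-FMT mice and 34.9, 36.8 and 35.7 FPKM in the alcohol-FMT mice, with all 3 alcohol-FMT mice above the controls (log2 fold change 0.28 ± 0.07, limma adjusted p = 0.55). The genes of the factors whose cores were searched for, Nrf1 and Gabpa, had log2 fold changes of 0.08 and -0.08. Among 13 tested genes for electron carriers and ubiquinone synthesis the median was 0.09, with Coq9 higher (0.24, limma adjusted p = 0.68), and of the 4 carriers of ATP, ADP and phosphate Slc25a4 was higher (0.16, limma adjusted p = 0.68). With 4.93% of all genes higher and 2.34% lower, counts of 0 or 1 in lists this short are not a result about the lists.

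The nuclear subunits of complex I, which feeds electrons into the same chain, gave counts of the same order. Of 35 tested, 9 passed the unadjusted threshold with higher values and 0 with lower ones, and the median log2 fold change was 0.20. Mouse 18 was below every control-FMT mouse for 14 and above for 11. Mice 24 and 31 were each above every control-FMT mouse for 30 and below for 2, so this placement is not particular to the members. Both sets were measured in the same 6 libraries, and the difference between them was not tested.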

How the data were processed

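Total RNA of the testis was sequenced by the authors from libraries of an Illumina TruSeq kit. The deposited FPKM values were made by the authors for the gene length in the table, with a depth term that was not the total of fragments in genes. The methods name TopHat2 as the aligner, Trinity, Corset and BUSCO for assembled transcripts, and DESeq2 for tests, while the submitters' processing notes list HISAT2 2.0.5, mm10 and mm8. Gene positions are those of GRCm38 (mm10). Multiplied by length, 100% of the FPKM were whole numbers of fragments (tolerance 0.01), which were read back. All 6 columns were used.

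The 15206 genes of mean FPKM 1 or more entered limma 3.58.1 (R 4.3.3) as log2(FPKM + 1), with a trend in the variance prior, two-sided, 3 against 3 libraries without covariates, and Benjamini-Hochberg adjustment over all genes tested. A log2 fold change on this scale understates the change of low genes. The p-values measure the spread between recipient mice. Recipients of a group were given stool from the same donor group, so variation between sets of donors is not part of this spread. The threshold was 0.05. The fit was tested on simulated data. GC content came from GENCODE M21 transcripts and was known for 99.9% of the genes tested, and promoters from RefSeq. Alternatives were limma-voom on the fragments, library totals, no filter, a minimum of 10 fragments in 3 libraries with 15 over all libraries, a pseudocount of 0.1 in place of 1, removal of length trends (lowess, span 0.3), leaving out each library, and structural subunits only. Removal of GC trends was added after seeing the data. Every member is named, with values per mouse for those at an unadjusted p up to 0.05, for the highest and lowest of each complex and for paralogs, and from each list up to 4 genes by smallest p. Values per mouse of further members, such as Atp5k and Atp5e, were chosen after they were seen. The members and lists were chosen with earlier results of these data known. Figures and tables were made with Python 3.11.15, NumPy 2.4.6, pandas 2.3.3, SciPy 1.17.1 and Matplotlib 3.10.9.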

Additional observations from a re-analysis of the deposited data

How the results depend on the processing

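The count of 9 members higher at an unadjusted p up to 0.05 fell to 3 with library totals, where the median of all genes moved from 0.01 to -0.02 and the genes higher and lower went from 750 and 356 to 449 and 515. It fell to 5 with length trends removed (520 and 514 of all genes) or with GC and length trends removed (577 and 563). Leaving out 1 library at a time gave counts of 1 to 21, beside 411 to 1851 of all genes higher. The count was 9 or 10 with limma-voom, no filter, the filter on fragments, a pseudocount of 0.1 and GC trends removed. In those fits 3.09 to 4.83% of all genes were higher. For structural subunits the count was 8. The count of lower members was 0 throughout, from 0 to 0 over the fits that left out a library. The median log2 fold change of the members lay between 0.11 and 0.16 over the alternatives that kept all libraries, and between 0.11 and 0.22 when 1 was left out. Under these 14 alternatives 28 of the 38 members kept their sign. The value turned for Cox6a1 with length (-0.039), GC (-0.0066) and both trends removed (-0.073), for Atp5g3 (-0.0057) and Uqcrb (-0.015) with length trends removed, and for Atp5k with both removed (-0.012). Leaving out 1 library turned it for Atp5d (-0.17 to 0.20), Atp5f1 (-0.0071 to 0.15), Atp5g2 (-0.0080 to 0.30), Atp5g3 (-0.20 to 0.40), Atp5k (-0.50 to 1.25), Cox5a (-0.0020 to 0.16), Cox6a1 (-0.076 to 0.22), Cox7a1 (-0.061 to 0.37), Uqcrb (-0.0082 to 0.16) and Uqcrh (-0.0082 to 0.33). The cause was not tested. The group labels share no replicate number. No paired analysis was possible because the mice of the groups carry different numbers. Depth limited Cox7a1 and Cox6a2, with a median of 11 and at most 3 fragments. With 3 mice in each group small differences cannot be resolved.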

Other observations

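In some genes outside the members mouse 18 was the lowest and mice 24 and 31 were the highest, as in Atp5k and Atp5e. Values are given here for 4 of them from the lists above, chosen after they were seen. Over all 15206 genes tested, mouse 18 was the lowest in 3310. Mice 24 and 31 were both above every control-FMT mouse in 3251. Genes with both traits were not counted. Cox8c, the testis form of complex IV subunit 8, was at 535, 445 and 400 FPKM in control-FMT mice 16, 19 and 21 and 255, 649 and 682 FPKM in alcohol-FMT mice 18, 24 and 31. Cyct, the testis form of cytochrome c, was at 65.7, 54.8 and 54.3 FPKM and at 42.3, 77.7 and 75.6 FPKM. The assembly factor genes Sdhaf4 of complex II and Fmc1 of complex V were at 15.2, 12.4 and 11.3 and at 12.3, 9.48 and 10.2 FPKM in the control-FMT mice, and at 8.08, 19.5 and 18.9 and at 7.57, 17.5 and 15.6 FPKM in mice 18, 24 and 31. The log2 fold changes of these 4 genes were 0.08, 0.11, 0.16 and 0.25.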
